A study of Mus musculus with 77 samples.

Results

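Mitosis genes were followed in the germ cells and the Sertoli cells of mouse testes in which a blocked retinoic acid supply was restored by an injection. The genes were taken by name from a list of 43 genes of the division cycle, of which 42 were measured, out of 19938 genes in all. Ccnb1, a cyclin B gene, had no probe set listed with 1 gene and was not analysed here. Values are log2 of the array intensity, so that a difference of 1 is 2-fold, and levels are compared only within a gene or as a mean over the same genes.

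All animals carried the RiboTag allele, with which cells that express Cre recombinase make a tagged ribosomal protein, so that an immunoprecipitation (IP) from whole testis recovers RNA on the ribosomes of those cells. The total fraction is RNA of the whole testis before that step. Cre was driven by the promoter of Stra8 or of Ngn3, both active in germ cells, or of Amh, active in Sertoli cells, and an IP reports on whichever cells have used that promoter. Every animal, those at time 0 included, had received BDAD, an inhibitor of retinoic acid synthesis, for 9 days. The later groups then received retinoic acid and were taken at 7 times afterwards, at 4h, 12h, 24h and 48h and then at 4d, 6d and 8d. The 77 arrays formed 35 groups. The Stra8 and Amh lines were on FVB/N and each gave 16 IP arrays over the 8 times, with 23 total arrays in the Stra8 line and 14 in the Amh line, whose total fraction at 4h was not analysed here. The Ngn3 line was on C57BL/6, with 4 IP and 4 total arrays at time 0 and 4h, so that its line and its strain cannot be told apart. Groups held 2 arrays, apart from 3 or 4 in the Stra8 total fraction at 0, 4h, 24h and 48h. No vehicle arm or later group without injection was among the arrays. The injection, the time since BDAD and any rise in the age of the animals therefore cannot be told apart.

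Mitosis is driven by Cdk1 bound to cyclins A and B, whose activity is started by the phosphatase Cdc25c and the kinases Plk1 and Aurka. Chromosomes are condensed, attached to the spindle through their kinetochores and held until the spindle checkpoint is satisfied, when the anaphase-promoting complex marks cyclins and securin for destruction and separase parts the sister chromatids. Most of these genes are transcribed late in the cell cycle, largely through complexes that bind CHR and CCAAT elements near their start sites. In the juvenile testis spermatogonia divide by mitosis and spermatocytes then enter meiosis, which uses much of the same machinery. Sertoli cells, the somatic nurse cells of the tubule, multiply early in life and then stop dividing for good.

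Promoter stretches are shown for 6 members because the results below turn on a division within the list, with 3 genes whose level differed strongly in the Amh IP and 3 whose level differed little; they were chosen after their values had been seen. Each runs from 130 bases before to 20 bases after the start site that RefSeq annotates on GRCm38.p6. Capitals mark the CHR letters TTTGAA and the CCAAT box, or either motif as read on the opposite strand (TTCAAA and ATTGG), found by a text search.
Ccnb2, chr9:70421535-70421684, minus strand: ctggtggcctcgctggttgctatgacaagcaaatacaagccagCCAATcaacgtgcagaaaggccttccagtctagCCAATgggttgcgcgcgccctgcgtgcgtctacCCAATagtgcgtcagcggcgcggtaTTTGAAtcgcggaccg
Ube2c, chr2:164769799-164769948, plus strand: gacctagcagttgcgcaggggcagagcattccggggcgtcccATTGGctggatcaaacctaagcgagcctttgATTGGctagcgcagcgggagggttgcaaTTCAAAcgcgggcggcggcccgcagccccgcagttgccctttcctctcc
Top2a, chr11:99024170-99024319, minus strand: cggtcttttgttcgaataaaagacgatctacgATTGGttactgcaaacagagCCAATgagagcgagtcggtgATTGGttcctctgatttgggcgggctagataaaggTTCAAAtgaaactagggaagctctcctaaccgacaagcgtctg
Cdk1, chr10:69352893-69353042, minus strand: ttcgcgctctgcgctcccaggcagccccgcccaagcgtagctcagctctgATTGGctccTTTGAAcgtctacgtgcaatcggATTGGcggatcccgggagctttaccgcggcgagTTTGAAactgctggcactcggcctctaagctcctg
Racgap1, chr15:99651637-99651786, minus strand: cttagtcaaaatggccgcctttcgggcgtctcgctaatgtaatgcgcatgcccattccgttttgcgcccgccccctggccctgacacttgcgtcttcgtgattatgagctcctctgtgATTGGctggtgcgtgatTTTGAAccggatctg
Pttg1, chr11:43425962-43426111, minus strand: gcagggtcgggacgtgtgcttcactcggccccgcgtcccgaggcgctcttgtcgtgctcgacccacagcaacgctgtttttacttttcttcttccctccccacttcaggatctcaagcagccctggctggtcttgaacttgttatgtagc
Ccnb2 encodes a mitotic B-type cyclin, Ube2c the ubiquitin-conjugating enzyme of the anaphase-promoting complex, and Top2a the topoisomerase that untangles sister chromatids. Cdk1 is the mitotic kinase itself, Racgap1 a component of the central spindle, and Pttg1 securin, the inhibitor of separase. The stretch of Pttg1 held neither motif, whereas the other 5 held both.

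Over windows of 250 bases before to 50 bases after the start, 34 of the 42 members had a promoter in the table. TTTGAA on either strand was present in 24 of the 34 (70.6%), against 17.3% of the 15614 measured genes with a promoter. CCAAT on either strand was present in 25 of the 34 (73.5%), against 41.7% of those genes. Matches were counted wherever the letters stood, also where the motifs share a base, and a match is a string of letters and not a measured binding site. In the Amh IP, the difference of 48h minus 0 had a median of -1.62 over the 24 members with TTTGAA, of which 20 were called lower, and of -1.34 over the 10 members without it, of which 8 were called lower. Promoters with the letters were found among members called lower and among those not called: Cdk1 and Racgap1 hold the letters, with differences of -0.62, which passed the adjusted p but was under 2-fold, and -0.12.

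**Figure D1:**
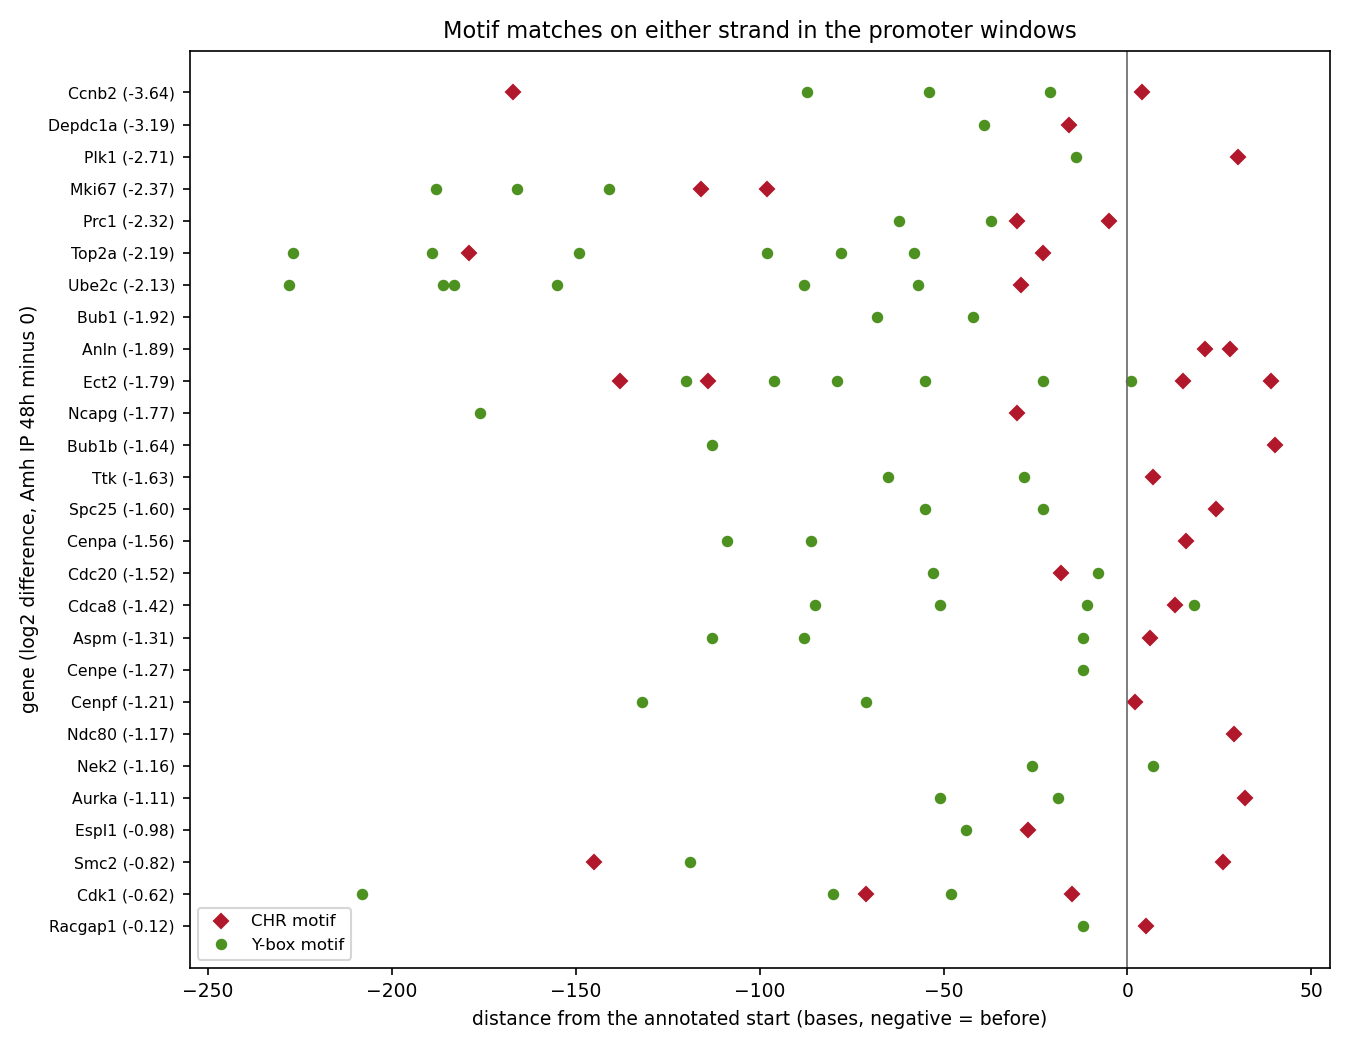
Positions of the CHR letters (diamonds) and CCAAT boxes (circles; labelled Y-box), on either strand, in bases from the annotated start (x axis), for the members with a match in their window (rows), ordered by the difference of 48h minus 0 in the Amh IP. Rows at both ends hold both motifs, from Ccnb2 at -3.64 in the top row to Racgap1 at -0.12 in the lowest row.

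The arrays were first set against their labels. Over 12 germ cell marker genes the mean log2 level was 11.35 to 11.80 in the 16 Stra8 IP arrays and 7.85 to 9.11 in the 16 Amh IP arrays, and over 12 Sertoli cell marker genes it was 8.75 to 10.95 in the Stra8 IP and 12.40 to 12.59 in the Amh IP. Each IP thus held the markers of the cell type that its label names, and the 2 lines did not overlap. The times 4h and 4d of the Amh line differed from those of the Stra8 line. Rarb, a receptor gene that retinoic acid switches on within hours, had a log2 level of 9.28 and 9.21 in the Stra8 IP arrays at 4h and 7.05 and 7.18 in those at 4d. In the Amh IP it had 7.07 and 7.02 at time 0, 7.18 and 7.16 in the arrays labelled 4h, 8.12 and 7.70 at 12h, 8.58 and 8.56 in the arrays labelled 4d and 6.93 to 7.10 at 6d and 8d. Cyp26a1, which retinoic acid also switches on, had 6.66 and 6.78 in the arrays labelled 4h and 8.28 and 8.18 in those labelled 4d, but it was high late as well, with 6.70 and 8.49 at 6d and 8.22 and 9.93 at 8d. In the Amh total fraction Rarb had 8.88 and 8.82 in the arrays labelled 4d, against 6.84 and 6.90 at time 0. Results on these arrays are therefore given for "the arrays labelled 4h" and "the arrays labelled 4d", and the Amh IP course is also given without them. In the Stra8 total fraction Rarb had 7.04 to 7.32 at time 0. At 4h it had 8.52 in replicate 1 but 6.98 and 6.99 in the other arrays, which thus did not show the rise. Cyp26a1 at 4h had 7.43 in replicate 1, against 6.27 and 6.54 in the other arrays. That array and 2 of the 24h group had a narrower spread of signal (interquartile range 2.50 to 2.58 log2 units, against at least 2.78 elsewhere).

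The mean over the 42 members separated the cell types. In the Amh IP, the mean log2 level was 10.23 and 10.11 at time 0, 9.15 and 9.13 at 24h, 8.58 and 8.68 at 48h, 8.88 and 9.27 at 6d and 9.07 and 9.07 at 8d, so that every array at these later times lay below both arrays at time 0. The arrays labelled 4h had 8.71 and 8.69, near those at 48h, and the arrays labelled 4d had 9.71 and 9.86. In the Stra8 IP, the mean was 10.93 and 10.86 at time 0, 11.06 and 11.21 at 48h, 11.38 and 11.55 at 6d and 11.01 and 11.14 at 8d, higher than in any Amh IP array. In a tissue sample, fewer cells of a type and less RNA per cell cannot be told apart.

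**Figure D2:**
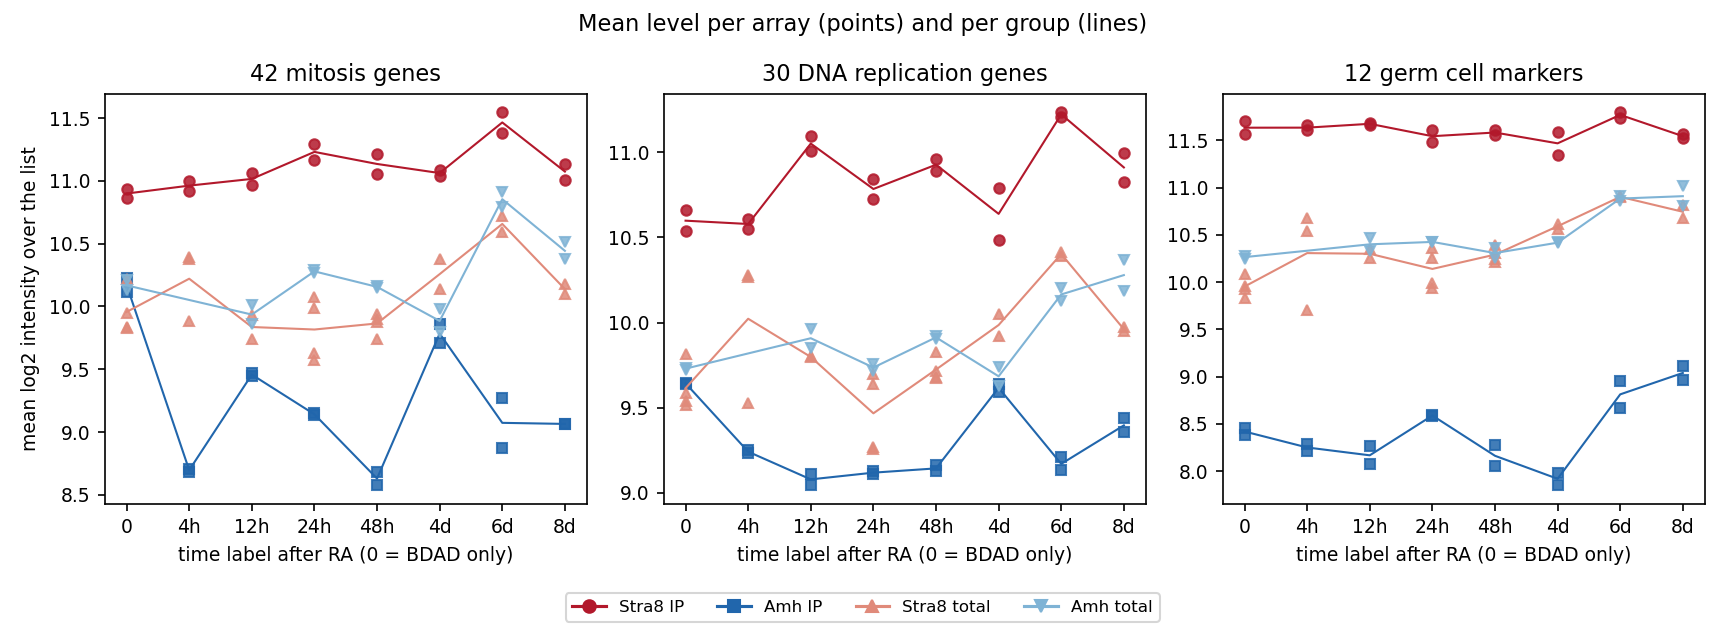
Mean log2 intensity (y axis) in each array over the 42 mitosis genes, 30 DNA replication genes and 12 germ cell markers (panels), by time after retinoic acid (x axis), for the IP and total fractions of the Stra8 and Amh lines; each point is an array and lines join the group means. The mitosis panel has the Amh IP at 8.58 and 8.68 at 48h, against 10.23 and 10.11 at time 0, while the Stra8 IP is never below 10.86.

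A gene was called where its difference was at least 2-fold with an adjusted p below 0.05 in limma, with Benjamini-Hochberg adjustment over all 19938 genes. In the Amh IP, 33 of the 42 members were called lower at 48h than at time 0 and none higher, where 1% of all genes were called lower; the members' median difference was -1.51 and that of all genes 0.03. The number of members called grew with time up to 48h. At 12h 6 were called lower (0.682% of all genes), at 24h 23 (0.451%), at 6d 24 (2.14%) and at 8d 21 (2.69%), with median differences of -0.73, -1.02, -1.10 and -1.00. Without replicate 1 of time 0 the count at 12h was 4. Leaving out arrays of 6d moved its count between 18, without replicate 1, and 32, without replicate 2. The arrays labelled 4h had 33 members called lower (1.32%) with a median of -1.45. The arrays labelled 4d had none called by limma (0.456% of all genes were called lower). There 21 members were lower at an unadjusted p below 0.05, and 15 had an adjusted p below 0.05 at under 2-fold. Without replicate 2 of time 0, 1 was called. Leaving out both label groups, the highest group mean fell at time 0 for 39 of the 42 members and the lowest at 48h for 31.

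Steps between times in the Amh IP were taken without the arrays labelled 4h and 4d. The members' median was -0.73 for 12h minus 0, -0.24 for 24h minus 12h and -0.51 for 48h minus 24h. It was 0.42 for 6d minus 48h and 0.02 for 8d minus 6d. At any fold, 33, 14, 17, 14 and 9 members had an adjusted p below 0.05 in limma, in the same order. Fewer reached 2-fold. Members called lower numbered 2 for 24h minus 12h (0.617% of all genes), Nuf2 and Ccnb2, and 4 for 48h minus 24h (0.181%), namely Ccnb2 at -1.90, Depdc1a at -1.43, Ccna2 at -1.24 and Plk1 at -1.10. The first count ranged from 1, without replicate 2 of 12h, to 4, without replicate 1 of 24h. For 6d minus 48h, 6 members were called higher (0.622%). They were the proliferation marker Mki67, with the highest difference of the members, Top2a at 1.35, the spindle protein gene Nusap1 at 1.24, Ccna2 at 1.19, Plk1 at 1.07 and the checkpoint kinase gene Bub1 at 1.02. That count was 2 without replicate 2 of 6d. For 8d minus 6d 1 member was called lower (0.371%), Ube2c at -1.20, and 4 were without replicate 2 of 6d. Germ cell markers, at low levels in the Amh IP, moved with the members for 48h minus 24h and for 6d minus 48h. Of 12, 2 were called lower for 48h minus 24h (8 below 0, median -0.66) and 4 were called higher for 6d minus 48h (11 above 0, median 0.74), while for 24h minus 12h 9 were above 0 with a median of 0.63. For 8d minus 6d 7 of these markers were above 0 and 1 was called higher, with a median of 0.14. Their part in these steps was not tested.

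Among the genes of entry into mitosis were 3 of the 4 largest differences of the list. Of 8 members, 7 were called lower at 48h in the Amh IP, with a median of -1.56. Ccnb2 had a log2 level of 8.27 and 8.47 at 48h, against 12.04 and 11.98 at time 0, which is 12.5-fold lower (difference -3.64, SE 0.15, n = 2 each, limma adjusted p = 4.11e-24). Both arrays at 48h lay far below both at time 0. Ccna2, the cyclin A gene of dividing cells, had 11.69 and 11.53 at time 0, 10.94 and 11.07 at 12h, 10.18 and 10.03 at 24h, 8.75 and 8.97 at 48h, 9.75 and 10.35 at 6d and 9.12 and 9.16 at 8d. Its groups at 12h, 24h and 48h followed each other downwards with no overlap, and the difference of 48h minus 0 was -2.75 (SE 0.13, adjusted p = 1.35e-22). The kinase gene Plk1 had 8.40 and 8.68 at 48h, against 11.32 and 11.18 at time 0, a difference of -2.71 (SE 0.26, adjusted p = 6.19e-11).

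Cdk1 was the exception among the entry genes. It had 11.37 and 11.31 at time 0, 10.74 and 10.70 at 48h, 10.56 and 11.41 at 6d and 11.71 and 11.87 at 8d. At 48h its arrays lay below those at time 0, by -0.62 (adjusted p = 0.0401), which is under 2-fold. At 8d both of its arrays were above those at time 0, with a difference of 0.45 that did not pass (adjusted p = 0.0887). The remaining entry genes, which are Cdc25c, the transcription factor gene Foxm1, and the kinase genes Aurka and Melk, were called lower at 48h by between -1.58 and -1.11.

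All 4 spindle checkpoint genes, Bub1, Bub1b, Ttk and Mad2l1, were called lower at 48h, with a median of -1.64. Mad2l1, whose product restrains the anaphase-promoting complex, had 11.26 and 11.19 at time 0, 9.69 and 9.77 at 48h, 9.73 and 10.20 at 6d and 10.32 and 10.06 at 8d. No array at the later times reached the level of time 0, and the difference of 48h minus 0 was -1.49 (SE 0.11, adjusted p = 4.41e-14). Bub1 did not keep to that course. It had 10.47 and 10.28 at time 0, 8.39 and 8.54 at 48h, 9.25 and 9.72 at 6d and 10.12 and 10.47 at 8d. Its arrays at 8d overlapped those at time 0 (difference -0.09, adjusted p = 0.815).

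Of the 4 genes that act at anaphase onset, 2 were called lower at 48h, Ube2c and Cdc20, the activator of the anaphase-promoting complex, and the group's median was -1.25. Ube2c had 11.10 and 10.98 at time 0, 8.88 and 8.95 at 48h, 9.38 and 9.66 at 6d and 8.47 and 8.17 at 8d, so that of these times its lowest arrays were those at 8d (8d minus 0, -2.73). Pttg1 had 10.13 and 10.08 at 48h, against 10.37 and 10.28 at time 0 (difference -0.22, adjusted p = 0.196). The separase gene Espl1 had a difference of -0.98, adjusted p = 0.0117, just under 2-fold.

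In the chromosomal passenger complex, which corrects spindle attachment, 3 of 4 members were called lower at 48h (median -1.32). Aurkb, its kinase, had 11.19 and 11.12 at time 0, 9.01 and 9.24 at 48h, 9.18 and 9.49 at 6d and 9.19 and 8.96 at 8d. The later arrays lay close together and well below time 0, with a difference of -2.03 at 48h (SE 0.13, adjusted p = 1.78e-16). Incenp, the scaffold of the complex, had -0.80 at 48h and was called lower at 6d, at -1.05.

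All 6 centromere and kinetochore members, Cenpa, Cenpe, Cenpf, Ndc80, Nuf2 and Spc25, were called lower at 48h, with a median of -1.34. Cenpf had 9.87 and 9.74 at time 0, 8.53 and 8.67 at 48h, 8.80 and 9.44 at 6d and 9.44 and 9.71 at 8d. The decline at 48h (-1.21, SE 0.21, adjusted p = 5.88e-05) was followed by arrays at 8d just below those at time 0, with a difference of -0.23 (adjusted p = 0.516).

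Among the 6 genes of chromosome structure 3 were called lower at 48h, Top2a, Mki67 and the condensin gene Ncapg, with a group median of -1.38. Top2a had 11.10 and 10.96 at time 0, 8.75 and 8.94 at 48h, 9.95 and 10.45 at 6d and 10.22 and 10.44 at 8d. Mki67, whose product coats mitotic chromosomes, had 11.25 and 11.05 at time 0, 8.66 and 8.91 at 48h, 10.02 and 10.55 at 6d and 9.61 and 9.74 at 8d. Of these times both genes were lowest at 48h (differences -2.19 and -2.37, adjusted p = 2.09e-14 and 5.92e-12), and their arrays at 6d lay between those of 48h and time 0. The condensin core genes Smc2 and Smc4, whose products also act outside mitosis, had differences of -0.82 and -0.67 at 48h and were not called, and Smc4 had -0.03 at 6d and 0.07 at 8d.

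Spindle assembly members were called lower in 4 of 5 cases at 48h (median -1.16), the exception being Tpx2. Tpx2, which activates Aurka on the spindle, had 10.93 and 10.85 at 48h, against 10.96 and 10.87 at time 0 (difference -0.03, SE 0.16, adjusted p = 0.964), and its groups overlapped. At 6d it had 11.31 and 11.16, a difference of 0.32 that did not pass (adjusted p = 0.146). Of the 4 midzone and cytokinesis members, 3 were called lower at 48h, the spindle-bundling gene Prc1, the contractile ring gene Anln and Ect2, which activates the ring (median -1.84). Racgap1, the partner of Ect2, had 11.72 and 11.73 at 48h, against 11.85 and 11.83 at time 0, a difference of -0.12 (adjusted p = 0.675). Depdc1a, a gene of mitotic cells outside these roles, had 6.17 and 6.20 at 48h, against 9.51 and 9.24 at time 0 (difference -3.19, SE 0.24, adjusted p = 4.41e-14), and at 6d the difference was -3.31.

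**Figure D3:**
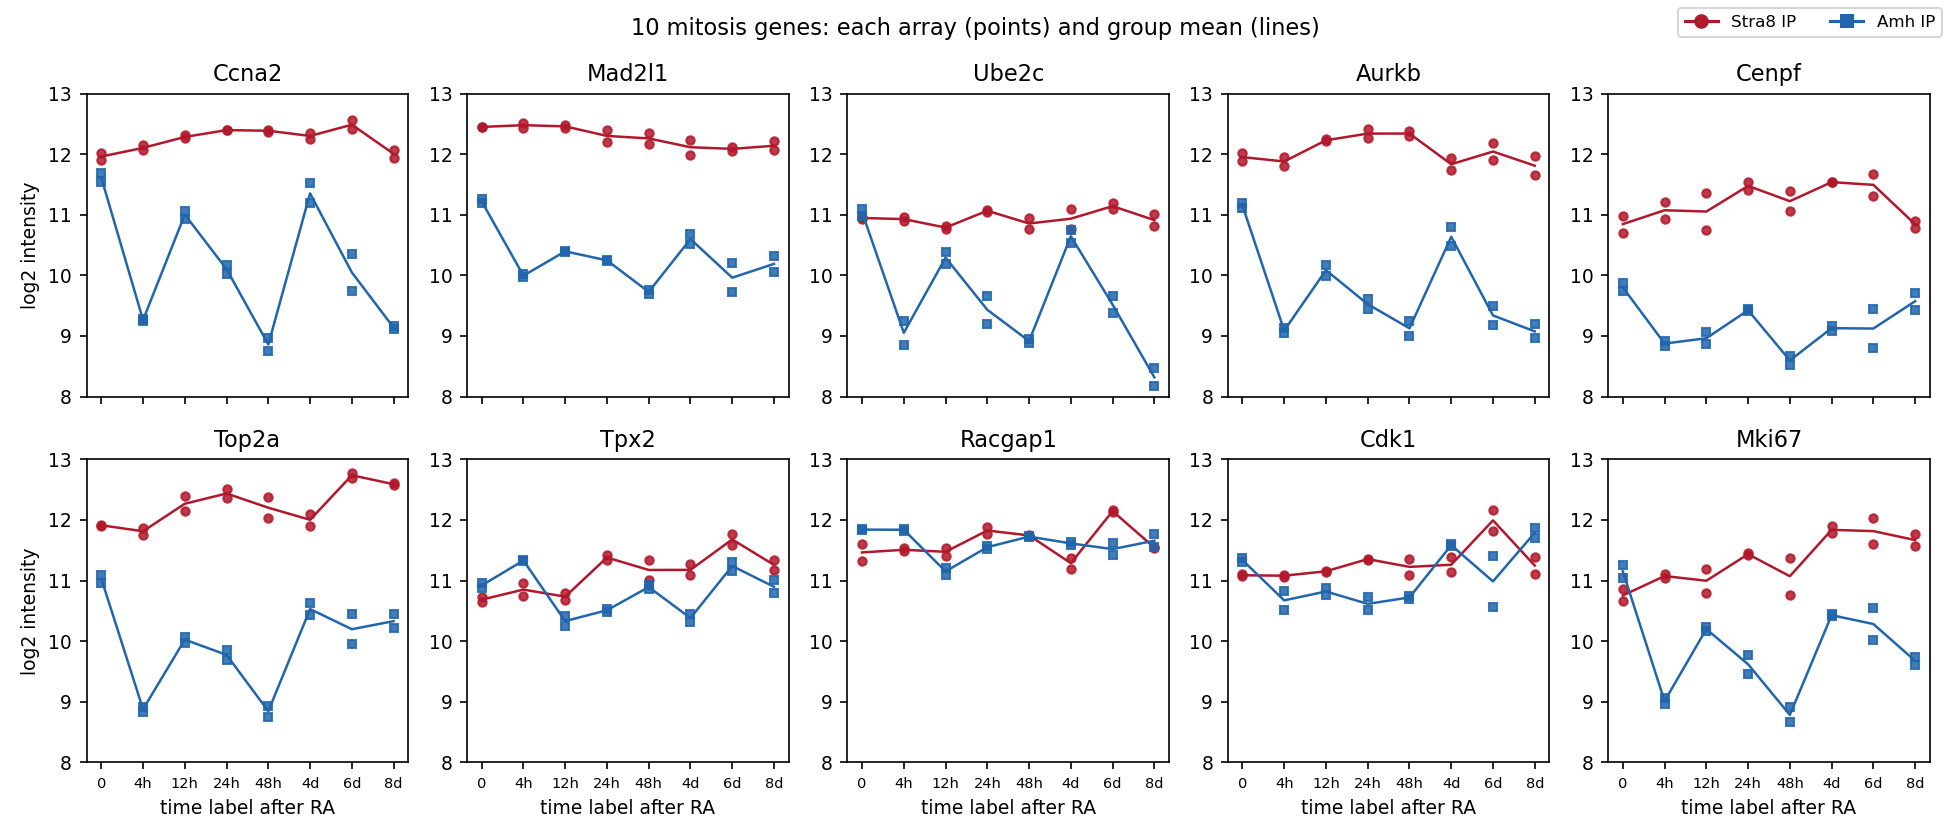
Log2 intensity (y axis) of 10 members in each array of the Stra8 IP and the Amh IP, by time (x axis); each point is an array and lines join the group means. In the Amh IP, 7 of the 10 lie lower at 48h than at time 0 by over 1 log2 unit, while Tpx2, Racgap1 and Cdk1 differ by -0.03, -0.12 and -0.62; in the Stra8 IP none of them is lower by that much.

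Counts of members called lower than at time 0 were also taken at 6d, with no test between roles. Entry genes had 6 of 8, checkpoint genes 3 of 4, anaphase genes 2 of 4, passenger genes 3 of 4, kinetochore genes 3 of 6, chromosome structure 2 of 6, spindle assembly 1 of 5 and midzone genes 3 of 4, beside Depdc1a. At 8d the counts were 6, 2, 2, 2, 2, 2, 1 and 3 in the same order. Ccnb2, at -2.77 and -2.97, and Depdc1a, at -3.31 and -2.96, held the largest differences at both times, together with Aurkb at -1.82 at 6d and Ube2c at 8d. A test over all times found 36 of the 42 members called in the Amh IP course, against 7.62% of all genes, and 35 without the arrays labelled 4h and 4d.

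Further cell cycle genes were counted in the same contrast. Of 74 other mitosis genes, 27 were called lower at 48h and none higher (median -0.66), led by the kinetochore genes Ska3 at -2.05 and Knl1 at -2.02 and the spindle gene Spag5 at -1.98. Of 30 DNA replication genes, 3 were called lower, Ccne2 at -1.28, Mcm10 at -1.16 and Rrm2 at -1.16, with a median of -0.49. Their mean log2 level was 9.13 and 9.16 at 48h, against 9.65 and 9.64 at time 0. Of 8 CDK inhibitor and D cyclin genes, 1 was called lower at 48h, the inhibitor gene Cdkn2c at -1.33. At 6d that group held calls in both directions, with the cyclin genes Ccnd1 at 2.12 and Ccnd2 at -1.78, and Cdkn2c at -1.63.

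Germ cell markers were present at low levels in the Amh IP and are given beside these counts. Their mean log2 level was 8.05 and 8.27 at 48h, 8.67 and 8.95 at 6d and 9.11 and 8.97 at 8d, against 8.38 and 8.46 at time 0. At 48h, 0 of the 12 were called in limma, and 8 of 12 had a difference below 0 (median -0.24). At 6d and 8d the median was 0.48 and 0.60, with 1 and 2 called higher, while the mitosis genes were lower than at time 0. Sertoli cell markers had a mean of 12.56 and 12.53 at 48h, against 12.45 and 12.44 at time 0, and 0 of 12 were called. The part of germ cell RNA in the members' course was not tested.

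In the Stra8 IP no member was called lower at any time than at time 0, and those called higher than at time 0 numbered 0 at 4h, 12h, 24h and 48h, 1 at 4d, 4 at 6d and 0 at 8d. All genes called higher made up 0.231%, 0.14%, 0.211%, 0.341%, 0.848%, 3.71% and 4.38% at those 7 times. All genes called lower made up 0.01%, 0.336%, 0.231%, 0.547%, 1.1%, 2.27% and 3.01%. At these shares few or no members would be called, higher or lower. At an unadjusted p below 0.05 in limma, 1, 10, 18 and 16 members were higher at 4h, 12h, 24h and 48h, and at 8d 14 were higher and 6 lower. With adjustment, 1, 0, 6, 7 and 16 members had a p below 0.05 at these times, all at under 2-fold. Leaving out 1 array gave 2 members at 4d, without its replicate 2, and 2 at 8d, without replicate 2 of time 0. Between consecutive late times, 1 member was called higher for 6d minus 4d (2.29% of all genes), Ncapg at 1.03, and 1 was called lower for 8d minus 6d (0.657%), Cdc25c at -1.04. For 8d minus 6d 23 members were lower and 0 higher at an unadjusted p below 0.05, with a median of -0.39, so that most members were below their 6d level by 8d. At any fold 14 had an adjusted p below 0.05 in limma. The count for 6d minus 4d was 3 without replicate 2 of 4d and 0 without replicate 1 of 4d, and that for 8d minus 6d was 2 without replicate 2 of 8d and 0 without replicate 2 of 6d. Replicates 1 and 2 of 4d had means of 10.95 and 10.02 over the Sertoli cell markers and of 9.12 and 7.79 over the macrophage markers. For 6d minus 4d, 11 of 12 Sertoli cell markers were called lower. The part of these markers in the members' differences at 4d was not tested. Over all times 4 of the 42 members were called in the Stra8 IP course, against 10.8% of all genes.

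At 6d the Stra8 IP members shared a direction without reaching 2-fold in most cases. Of the 42, 38 had a difference above 0, with a median of 0.64 where all genes had -0.05. At any fold 31 had an adjusted p below 0.05 in limma, 2 of them below 0, as had 6668 of all 19938 genes. Birc5, the survivin gene of the passenger complex, had 9.90 and 9.67 at 6d, against 8.43 and 8.50 at time 0 (difference 1.32, SE 0.17, adjusted p = 1.33e-08). Plk1 had 12.63 and 12.80 at 6d, against 11.61 and 11.48 at time 0 (1.17, SE 0.26, adjusted p = 0.000341). Mki67 had 11.60 and 12.03 at 6d, against 10.65 and 10.85 at time 0 (1.06, SE 0.21, adjusted p = 6.16e-05). In these genes and in Nek2, a centrosome kinase gene with a difference of 1.03, both arrays at 6d lay above both at time 0. The same held for 30.7% of all genes. The count was 9 without replicate 1 of the 6d group.

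Not all members took part in that. Mad2l1 had 12.12 and 12.06 at 6d, against 12.46 and 12.44 at time 0, a difference of -0.36 (adjusted p = 0.0102). Aurkb had 11.91 and 12.18 at 6d, against 12.02 and 11.88 at time 0 (0.09, adjusted p = 0.649), with overlapping groups. Pttg1 had a difference of -0.04 and Ndc80, a kinetochore gene, of 0.16. Tpx2 had 11.59 and 11.77 at 6d, against 10.73 and 10.64 at time 0 (0.99, adjusted p = 2.11e-06), just under 2-fold. Cdk1 had 11.10 and 11.07 at time 0, 11.82 and 12.17 at 6d and 11.10 and 11.39 at 8d, so that its arrays at 6d stood above those at both other times.

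Of the other lists in the Stra8 IP at 6d, 15 of 74 other mitosis genes were called higher (median 0.41), with Oip5 at 1.70, Spc24 at 1.64 and Ckap2l at 1.49. DNA replication genes were called higher in 6 of 30 cases, among them Ccne2 at 2.54 and Rrm2 at 2.19. The cell cycle inhibitor gene Cdkn1b was called lower, at -1.41. Sertoli cell markers moved beside these genes: their mean log2 level was 8.75 and 9.06 at 6d, against 9.68 and 10.31 at time 0, and 7 of 12 were called lower. Germ cell markers had a mean of 11.80 and 11.74 at 6d, against 11.70 and 11.56 at time 0, with 2 of 12 called higher. The part of carried-over Sertoli cell RNA in the members' difference was not tested.

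**Figure D4:**
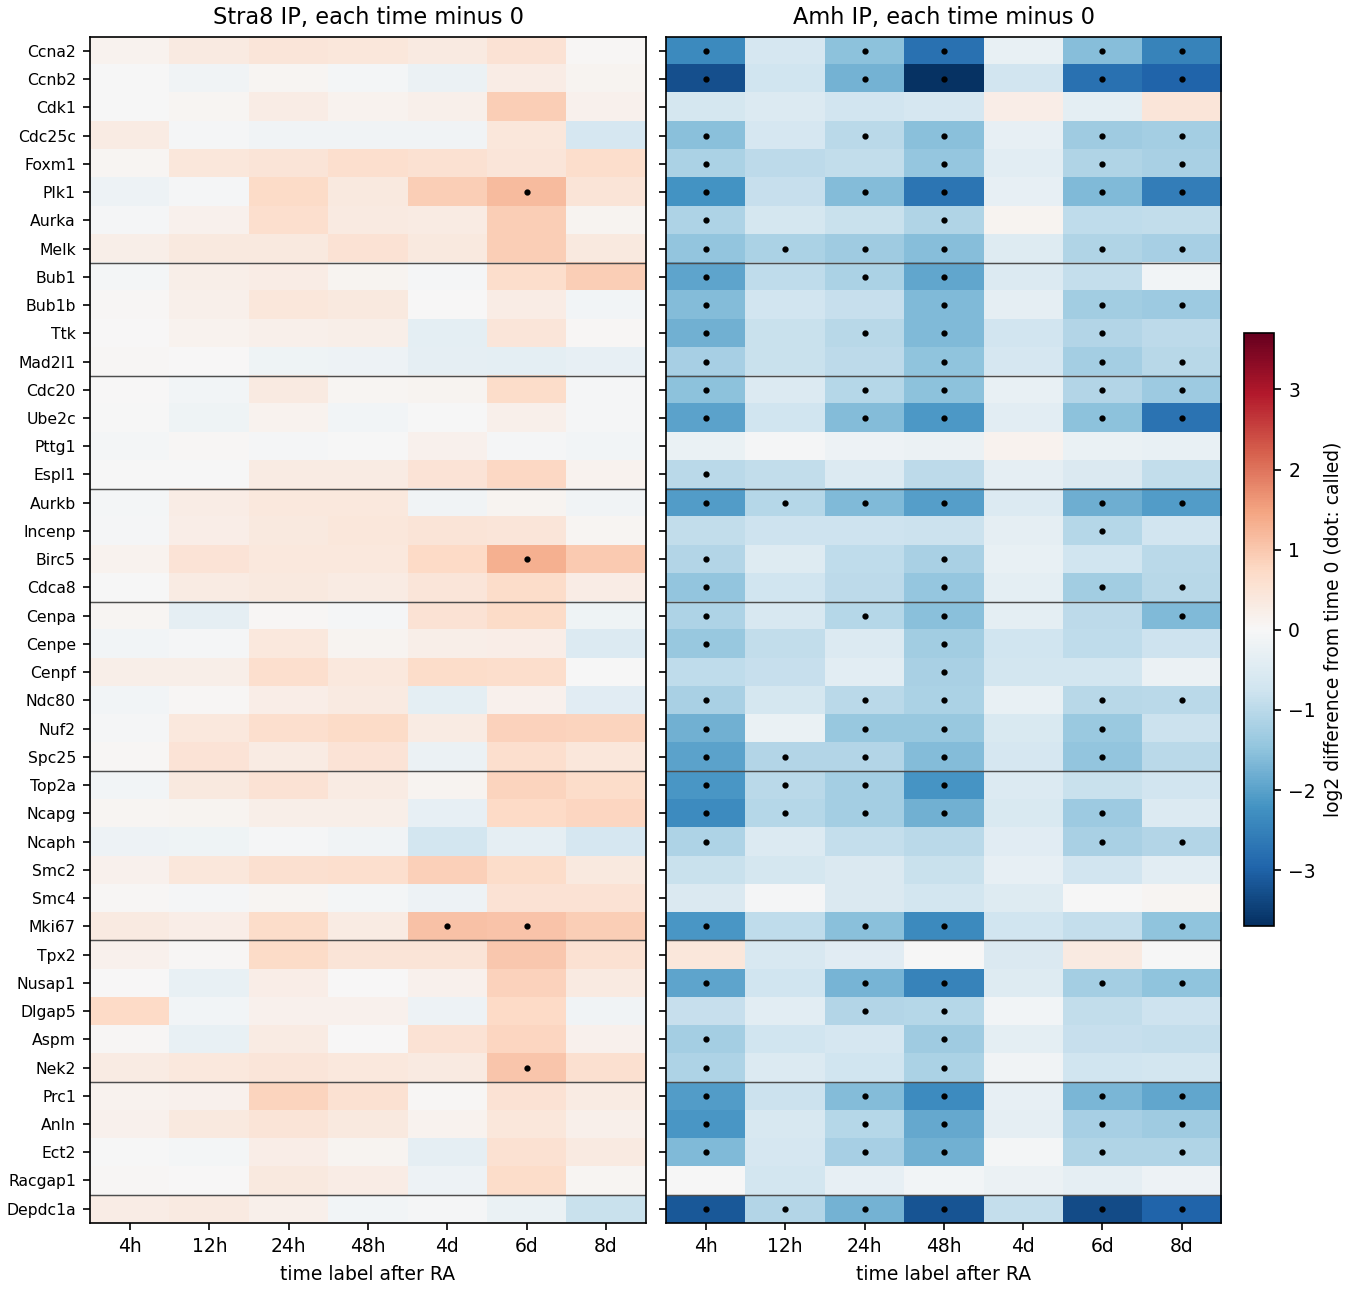
Difference from time 0 (log2, colour) for each of the 42 members (rows, by role) at the 7 later times (columns) in the Stra8 IP (left) and the Amh IP (right); a dot marks a called member. The Amh IP holds 33 dots at 48h and the Stra8 IP 0, where 1.22% and 0.888% of all genes were called in either direction. The columns labelled 4h and 4d of the Amh IP stand out of the order of their neighbours.

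The difference between the responses was tested directly, as the Stra8 IP change minus the Amh IP change. Called members numbered 13 at 12h (1.07% of all genes), 32 at 24h (0.672%), 36 at 48h (1.22%), 37 at 6d (6.07%) and 28 at 8d (5.55%), all positive. The median over the members at 48h was 1.67, against 0.00 for all genes. Ccnb2 led at 3.57, followed by Ccna2 at 3.18 and Depdc1a at 3.10, and Pttg1, Racgap1 and Tpx2 had the smallest values, 0.20, 0.40 and 0.52. At 6d the median was also 1.67, with Depdc1a at 3.05, Ccnb2 at 3.04 and Plk1 at 2.81.

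The levels themselves were compared between the IPs at the same time. At time 0, 14 members were called higher in the Stra8 IP than in the Amh IP (7.1% of all genes), with a median of 0.83. Ttk led at 1.87, with Ndc80 at 1.77 and Bub1 at 1.69, and Mki67 and Racgap1 had values of -0.40 and -0.38. Mki67 had 10.65 and 10.85 in the Stra8 IP at time 0, against 11.25 and 11.05 in the Amh IP, with both Stra8 arrays below both Amh arrays and an adjusted p of 0.128 that did not pass. At 48h 38 members were called higher (8.55%; median 2.74) and at 6d 39 (11%; median 2.60). Averaged over the times, 38 were called higher (7.54%; median 2.01), with Ttk at 2.96, Bub1 at 2.88 and Ncapg at 2.70. The 4 that were not called were Racgap1 at 0.01, Pttg1 at 0.19, Cdk1 at 0.23 and Tpx2 at 0.30. In the total fractions of these lines, no member was called for Stra8 minus Amh averaged over the times (0.0301% of all genes in either direction). At an unadjusted p below 0.05 in limma 1 was higher and 29 lower, with a median of -0.19. With adjustment 25 had a p below 0.05, all at under 2-fold.

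Each IP was also set against the total fraction of its own line. In the Stra8 line, all 42 members had a mean difference above 0 and 25 were called higher in the IP (3.84% of all genes; median 1.04). Espl1 had 1.71, Ndc80 1.57 and Bub1b 1.55, and the smallest were Pttg1 at 0.32, Racgap1 at 0.33 and Birc5 at 0.35. The count was 34 at 24h (7.5%) and 12 at 6d (2.66%). Without the 3 total arrays of narrow signal spread it was 23 over the times and 30 at 24h. Without the Stra8 total arrays at 4h it was 27 over the times. The 6d count ranged from 8, without replicate 2 of the IP, to 17, without replicate 2 of the total fraction. In the Ngn3 line 14 members were called higher in the IP (6.18%; median 0.62), led by Espl1 at 1.97, Ndc80 at 1.64 and Ttk at 1.61. Ndc80 had 11.05 and 10.90 in the Ngn3 IP at 4h, against 9.32 and 9.39 in its total fraction.

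The Amh IP was near its total fraction at time 0 and below it later. At time 0 no member was called in limma, where 3.83% of all genes were called in either direction, and the median was 0.07. At an unadjusted p below 0.05, 5 members were higher and 6 lower, and 6 had an adjusted p below 0.05 at under 2-fold. Ccna2 had 11.69 and 11.53 in the Amh IP at time 0, against 11.80 and 11.68 in the Amh total fraction. At 48h it had 8.75 and 8.97 in the IP, against 11.65 and 11.61 in the total fraction. Members called lower in the IP numbered 6 at 12h (4.13%), 31 at 24h (4.39%), 33 at 48h (5%), 38 at 6d (4.82%) and 32 at 8d (5.76%). In the arrays labelled 4d 0 were called lower (3.99%). There 10 were lower and 5 higher at an unadjusted p below 0.05 in limma, and 12 had an adjusted p below 0.05 at under 2-fold. Without replicate 1 of the total fraction 1 was called. Averaged over the times 25 were called lower (3.94%; median -1.03, all genes 0.12), or 28 without the arrays labelled 4h and 4d and 14 with median centring, with Bub1 at -1.72, Ttk at -1.57 and Spc25 at -1.44. Tpx2, Racgap1, Cdk1 and Pttg1 had mean differences above 0, of 0.39, 0.29, 0.19 and 0.02.

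Germ cell markers behaved otherwise at time 0. Of the 12, 10 were called lower in the Amh IP than in its total fraction at time 0 (median -1.98), when 0 of the 42 mitosis genes were, and 11 of 12 were called lower averaged over the times (median -2.35). Sertoli cell markers had differences above 0 in 12 of 12 cases at time 0, with a median of 0.54.

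**Figure D5:**
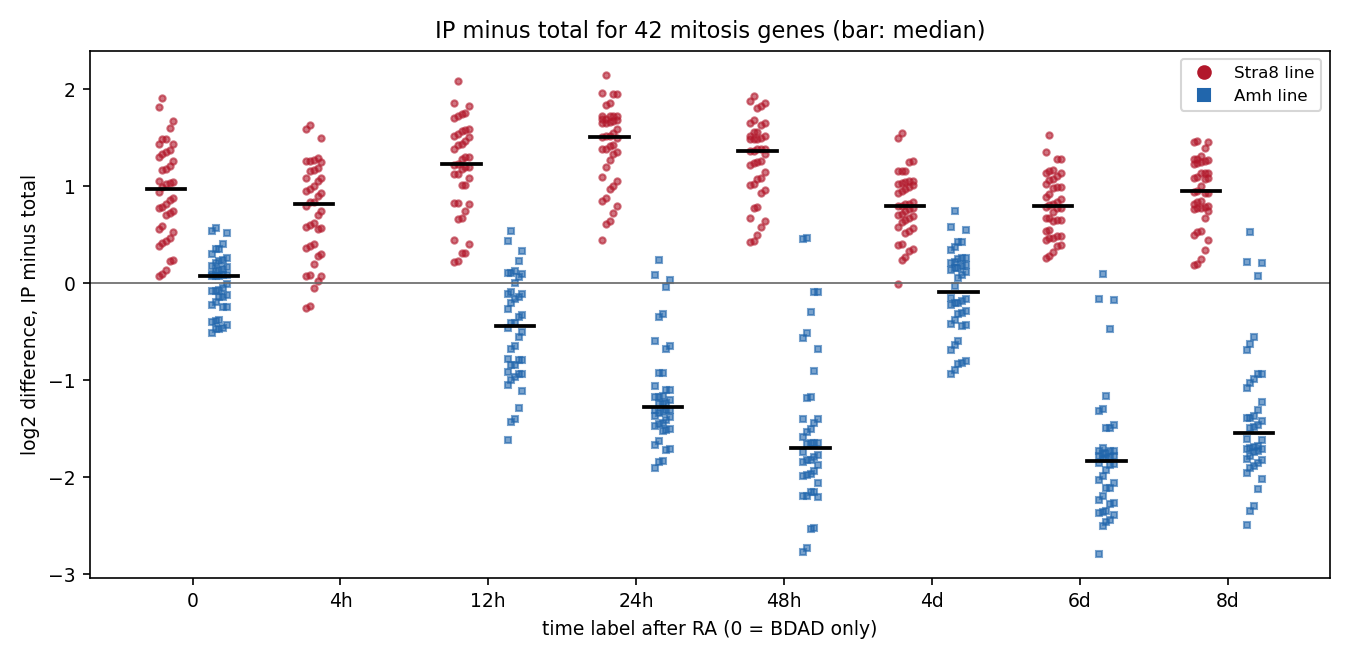
IP minus total fraction (log2, y axis) for each of the 42 members (points) at each time (x axis) in the Stra8 line (circles, left at each time) and the Amh line (squares, right); the bar is the median over members. The Stra8 medians lie above 0 at every time, whereas the Amh points are centred on 0.07 at time 0 and on -1.70 at 48h.

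In the Amh total fraction, the members' median difference of 48h minus 0 was 0.01. Of the 42, 35 had their highest group mean at 6d, or 37 without the arrays labelled 4d, in the Amh total fraction. There the mean over the 42 members was 10.79 and 10.91 at 6d, against 10.21 and 10.13 at time 0, and 11 members were called higher (1.26% of all genes; median 0.69). The largest were Smc4 at 1.35, Nusap1 at 1.25 and Plk1 at 1.24. Depdc1a was called lower (1.8% of all genes), with 7.34 and 8.26 at 6d, against 9.18 and 8.87 at time 0 (difference -1.22, adjusted p = 0.000141). In the Stra8 total fraction 11 were called higher at 6d (2.76%; median 0.74), led by Nek2 at 1.54, Plk1 at 1.33 and Bub1 at 1.23, while Mad2l1, Ncaph and Pttg1 had -0.01, 0.04 and -0.12. Nek2 had 10.64 and 10.85 in the Stra8 total fraction at 6d, against 9.16, 9.25, 9.34 and 9.07 at time 0, with a wide gap between the groups.

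At 8d 3 members were called higher in the Stra8 total fraction (3.38%), Bub1 at 1.75, Ncapg at 1.36 and Top2a at 1.07, and 5 in the Amh total fraction (3.46%), Bub1 at 1.75, Ncapg at 1.40, Top2a at 1.23, Cenpf at 1.04 and Smc4 at 1.02. Depdc1a was called lower in both, at -1.45 (1.48% of all genes) and -1.38 (2.34%). Bub1 had 12.55 and 12.74 in the Amh total fraction at 8d, against 10.97 and 10.82 at time 0. Over all times, 12 members were called in the Stra8 total course (6.9% of all genes) and 14 in the Amh total course (7.66%), which included the arrays labelled 4d. Germ cell markers were also higher in the totals: their mean log2 level was 10.90 and 10.91 at 6d in the Stra8 total fraction, against 9.84 to 10.09 at time 0, and 10.86 and 10.91 at 6d in the Amh total fraction, against 10.25 and 10.28 at time 0. Other markers moved in the Amh total fraction at 6d too. Of 4 Leydig cell markers 2 were called lower (median -1.13), with a mean of 8.78 and 10.30 at 6d, against 10.98 and 10.41 at time 0, and 10 of 12 Sertoli cell markers had a difference below 0. Replicate 1 of 6d was the lower array for the Leydig cell markers and for the macrophage markers (8.61, against 9.52 in replicate 2). Without it 12 members were called higher and Depdc1a was no longer called. The part of these markers in the members' difference was not tested.

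In the Ngn3 line, on C57BL/6, no member was called 4h after retinoic acid. For 4h minus 0, 0 of 42 were called in the IP (0.311% of all genes in either direction), where 2 were higher and 5 lower at an unadjusted p below 0.05 in limma and the median was -0.18. At any fold 1 member had an adjusted p below 0.05, as had 410 of all 19938 genes. In the total fraction 0 were called (0.301%), with 2 higher and 1 lower unadjusted and a median of 0.01. At these shares of all genes few or no members would be called. Ccna2 had 11.96 and 11.94 in the Ngn3 IP at 4h, against 12.22 and 11.88 at time 0, with overlapping groups. Mki67 had 10.35 and 10.10 at 4h, against 11.07 and 10.54 at time 0 (difference -0.58, adjusted p = 0.222), with both arrays at 4h below both at time 0.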

How the data were processed

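RNA was prepared, amplified and hybridised as biotin-labelled cDNA, 1 array a sample, per the labels' protocols. The deposited values are RMA intensity, per the submitters' processing notes. Its software and settings were not stated in those notes. Medians of 252.6 to 300.5 and minima of 25.1 to 26.3 over the arrays show a linear scale. The number of arrays limits the precision. Of 28853 probe sets, 23410 were annotated, 21789 of them with 1 gene and 1621 with several, which were left out; 99.6% matched RefSeq by gene number. For 999 genes with several probe sets the one with the highest mean over all arrays was used, which left 19938 genes.

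Log2 values were fitted with a mean for each of the 35 groups over all 77 arrays in limma 3.58.1 (R 4.3.3, data.table, version 1.17.8), with eBayes and a trend, and p-values were adjusted by Benjamini-Hochberg within each comparison. A call needed an adjusted p below 0.05 and at least 2-fold. The fit was tested on simulated data. Nothing says that arrays of a group came from separate animals, so that p-values measure the spread between arrays. That spread was pooled for each gene over the 35 groups, so that a p-value does not rest on the compared arrays alone. Replicates correlated at 0.958 to 0.999 and none were identical.

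The members and lists were chosen with earlier results of these data known. Per-array values were given for the member with the highest mean in each role and for Cdk1, Mki67 and Top2a, and differences for up to 3 called members with the largest and 3 with the smallest; other members named were chosen after their values were seen. Same-numbered IP and total arrays deviated together (correlation over 0.1) in 12 of 17 groups, 7 of 7 in the Amh line, and later times with time 0 in 6 of 29. Alternatives were quantile normalization, centring on array medians, averaging the probe sets of a gene, leaving out the lowest 30% of genes, eBayes without trend, fitting only the compared groups, no 2-fold minimum, the replicate number as a block, and each array left out, and the Amh arrays labelled 4h and 4d left out; leaving out the arrays of narrow range and the Stra8 total arrays at 4h was added after the data were seen.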

Additional observations from a re-analysis of the deposited data

Results flagged for a closer look

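In the Stra8 total fraction at time 0, 1 of 4 arrays stood apart for 2 members. Top2a had a log2 level of 11.104 in replicate 3, against 10.528 to 10.59 in the other arrays, and Mki67 had 10.115 in replicate 2, against 10.764 to 10.808. Dixon's test at its 95% level marks about 1 in 20 groups by chance, and 3 groups of 4 arrays were tested on 11 measures.

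For 7 of the members followed by array, the change at 48h differed between the Stra8 IP and the Amh IP by the test of the difference itself. The Stra8 change minus the Amh change was 3.1791 for Ccna2, 2.6864 for Mki67, 2.4782 for Top2a, 2.4157 for Aurkb, 2.0355 for Ube2c, 1.5837 for Cenpf and 1.3054 for Mad2l1, with adjusted p-values in limma between 1.666e-18 for Ccna2 and 0.0002533 for Cenpf. In each case both Amh IP arrays at 48h were lower than both at time 0, as they were for 28.9% of all genes.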

How the results depend on the processing

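Counts of called members kept within 1.5 times of the reported value under the other normalizations, filters and fits, with these exceptions. Without the 2-fold minimum, the count was 37 for the Amh IP at 6d, 31 for the Stra8 IP at 6d, 37 and 36 for the Stra8 and Amh totals at 6d, 1 for the Ngn3 IP at 4h, 42, 41 and 30 for IP minus total averaged over the times in the Stra8, Amh and Ngn3 lines. Of all 19938 genes, 4600, 6668, 6912, 4935, 410, 14219, 14782 and 11097 were called at that setting, in the same order. Most of all genes thus passed in the IP minus total comparisons. Median centring gave 14 for Amh IP minus total averaged over the times, and quantile normalization gave 2 for the Stra8 IP at 6d. With each array left out in turn, the counts ranged from 33 to 34 (Amh IP at 48h), 18 to 32 (Amh IP at 6d), 3 to 9 (Stra8 IP at 6d), 10 to 15 (Stra8 total at 6d), 9 to 15 (Amh total at 6d, 12 in either direction with all arrays), 0 (Ngn3 IP at 4h), 23 to 27, 21 to 26 and 13 to 15 (IP minus total in the Stra8, Amh and Ngn3 lines), 38 (Stra8 IP minus Amh IP), 35 to 36 (difference between responses at 48h) and 34 to 39 (at 6d). A few differences near 0, none of them called, changed sign. Tpx2 in the Amh IP at 48h had 0.0276 with median centring and -0.0721 to 0.0191 with an array left out. Racgap1 for Stra8 IP minus Amh IP had -0.0856 with median centring, -0.1362 with the replicate block and -0.0048 to 0.029 with an array left out, and for Ngn3 IP minus total -0.1281 with quantile normalization and -0.0508 to 0.0617. Mad2l1 had -0.0006 with quantile normalization and -0.0944 to 0.1233 in the Amh total at 6d, and -0.0774 to 0.0552 in the Stra8 total at 6d. With an array left out, Aurkb ranged from -0.044 to 0.2273 in the Stra8 IP at 6d and Cdk1 from -0.7774 to 0.0741 in the Amh IP at 6d. In the Ngn3 IP at 4h Ccna2 ranged from -0.2724 to 0.0676, Ube2c from -0.1885 to 0.0926 and Cdk1 from -0.3855 to 0.0324, and in Ngn3 IP minus total Ube2c from -0.1399 to 0.0007 and Mki67 from -0.2474 to 0.0185. The cause was not tested. The replicate block (consensus correlation 0.138) changed no other count of these comparisons by over 1.5 times. Over the remaining counts, 562 of 618 stayed within 1.5 times of their value, 6 were lower and 50 higher. With an array left out, 326 of 356 stayed, 9 were lower and 21 higher. Results on single members were the same in 2965 of 3072 cases, and with an array left out in 4679 of 4781. Of these cases 54 and 76 were counted as lost, 48 and 7 as gained, and 5 and 19 changed sign. Groups of 2 arrays limit what the tests can show.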
